A study of Mus musculus with 6 samples.

Results

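The MCM helicase and replication licensing genes are 10 genes whose proteins prepare replication origins and start the replicative helicase: Mcm2, Mcm3, Mcm4, Mcm5, Mcm6, Mcm7, Mcm10, Cdc6, Cdt1 and Cdc45. Their probes were found by gene name in the array annotation, which gave 18 probes for 10 genes, of 56605 probes that are not controls. All 18 were well above background on all 6 arrays and were among the 32074 probes, or 15094 genes, that were tested. Gene expression was measured in LSK cells (lineage-, Sca1+, cKit+), the bone marrow fraction that holds haematopoietic stem cells (HSCs) and early progenitors, on 1-colour Agilent arrays with 60-base probes. The mice were C57BL/6 at P6-P8, that is postnatal days 6 to 8, and there were 3 arrays for each group. Control mice were Atg5w/w;VaviCre+ (called wild type in the labels) and the others were Atg5f/f;VaviCre+ (Atg5f/f;Vav), with both Atg5 alleles floxed, so both groups carried the VaviCre transgene, which expresses Cre recombinase in haematopoietic cells. Atg5 is needed to form autophagosomes, and the comparison addresses how the expression profile of neonatal LSK cells differs when it is deleted. How many mice gave each sample is not given in the sources used here, so p-values measure the spread between these arrays.

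In G1 phase the origin recognition complex, with Cdc6 and Cdt1, loads the ring of Mcm2 to Mcm7 onto DNA, which licenses an origin. In S phase kinases turn the loaded ring into an active helicase by recruiting Cdc45 and the GINS complex, with Mcm10 needed for the step at which the helicase starts to move, and geminin holds Cdt1 back so that no origin fires again. Many of these genes are known targets of E2F transcription factors, and cells that leave the cycle, as most adult HSCs do, are known to lose MCM proteins and Cdc6.

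The promoters were searched for motifs known from cell cycle genes. RefSeq promoter entries (GRCm38.p6) were matched by symbol for 9 of the 10 genes, with 10 promoters in all, since Mcm7 has entries for a pair of starts, and Mcm4 was not matched. The 250 bases before each start were searched on both strands, with overlapping matches counted, for the E2F words TTTGGCGC, TTTCCCGC, TTTGCCGC and TTTCGCGC. At least 1 was present for 4 of the 9 genes (Mcm5, Mcm6, Mcm7 and Cdc6), while 1.86% of 32851 promoters in the table held one. The CCAAT box, searched as CCAAT on both strands, was present for 7 of the 9 genes and in 33.8% of all promoters. A gene was counted when any of its promoters held the motif, whereas the shares over the table were counted by promoter. Neither motif was common to all 9 genes, and the Cdt1 window held neither. Printed here are 3 windows that hold E2F words, and the window of Mcm10, which had the largest difference in expression between the groups and holds none; capitals mark the E2F words on either strand.
Mcm6 promoter, chr1:128359706-128359955, minus strand: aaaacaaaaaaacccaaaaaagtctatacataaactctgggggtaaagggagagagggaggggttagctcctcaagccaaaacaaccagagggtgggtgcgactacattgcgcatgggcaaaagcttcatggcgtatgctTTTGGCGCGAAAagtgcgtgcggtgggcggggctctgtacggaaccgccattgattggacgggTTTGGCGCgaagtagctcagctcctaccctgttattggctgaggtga
Mcm5 promoter, chr8:75109259-75109508, plus strand: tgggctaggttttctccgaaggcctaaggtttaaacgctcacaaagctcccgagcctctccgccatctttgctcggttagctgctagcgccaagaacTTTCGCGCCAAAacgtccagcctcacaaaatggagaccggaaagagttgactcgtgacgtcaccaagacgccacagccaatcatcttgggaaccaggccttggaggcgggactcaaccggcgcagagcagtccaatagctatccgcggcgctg
Cdc6 promoter, chr11:98907901-98908150, plus strand: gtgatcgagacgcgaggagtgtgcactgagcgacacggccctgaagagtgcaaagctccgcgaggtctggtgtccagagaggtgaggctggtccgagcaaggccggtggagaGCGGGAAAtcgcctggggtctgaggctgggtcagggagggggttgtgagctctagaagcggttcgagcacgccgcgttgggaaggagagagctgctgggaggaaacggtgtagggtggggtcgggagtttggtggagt
Mcm10 promoter, chr2:5012792-5013041, minus strand: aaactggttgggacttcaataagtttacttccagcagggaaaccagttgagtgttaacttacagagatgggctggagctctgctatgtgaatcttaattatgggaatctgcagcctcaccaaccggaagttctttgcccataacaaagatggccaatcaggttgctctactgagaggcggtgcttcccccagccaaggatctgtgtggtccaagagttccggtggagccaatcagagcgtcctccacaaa
The Mcm6 window holds 3 words, which begin 110, 106 and 47 bases before the start, and the first pair overlap. The Mcm5 window holds 2 overlapping words, at 153 and 149 bases before the start, and that of Cdc6 holds 1 at 138 bases. These are matches of letters and not measured binding sites.

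All 10 genes were higher in Atg5f/f;Vav LSK cells, and each of them passed the test (adjusted p from limma under 0.05). The differences ranged from 0.38 for Mcm4 to 1.07 for Mcm10 on the log2 scale, with a median of 0.55, while the median over all 15094 genes was 0.02. On each of the 10 genes the lowest Atg5f/f;Vav array was above the highest control array. Many other genes behaved in this way. Of all genes tested, 21.2% were called higher and 13.5% were called lower, and for 33.3% every Atg5f/f;Vav array was above every control array. Of all genes, 15.3% had a larger difference than the members' median. Of the 18 probes, 15 were called higher, against 17.3% of all probes tested.

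The size of a difference varied with the brightness of the probe. When all genes were put in deciles by mean signal, the median difference rose from -0.36 in the dimmest decile to 0.29 in the brightest, and the share called higher rose from 5.17% to 43.1%. The brightest decile held 6 of the genes: Mcm3, Mcm4, Mcm5, Mcm6, Mcm7 and Cdt1. Within it, between 18.3% (for Mcm5) and 43.0% (for Mcm4) of genes had a larger difference than these members. Mcm10 lay further out in its own decile, the ninth, where 3.11% of genes had a larger difference, and so did Cdc45 in the third (4.24%) and Cdc6 in the seventh (9.14%). For Mcm2, also in the ninth decile, the share was 25.9%.

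Whether the genes were called, more than the size of their differences, varied with the arrays used. Without control replicate 1, and likewise without control replicate 2, none of the 10 genes was called by limma, although 9 and 10 of them had an unadjusted p under 0.05. Across all probes, 221 and 157 were then called, compared with 11024 when all 6 arrays were used. Without Atg5f/f;Vav replicate 2, 6 of the 10 were called. The differences stayed above 0 for all 10 genes in each of these fits, and their median was 0.55 without control replicate 1, 0.50 without control replicate 2 and 0.60 without Atg5f/f;Vav replicate 2, against 0.55 with all arrays.

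**Figure D1:**
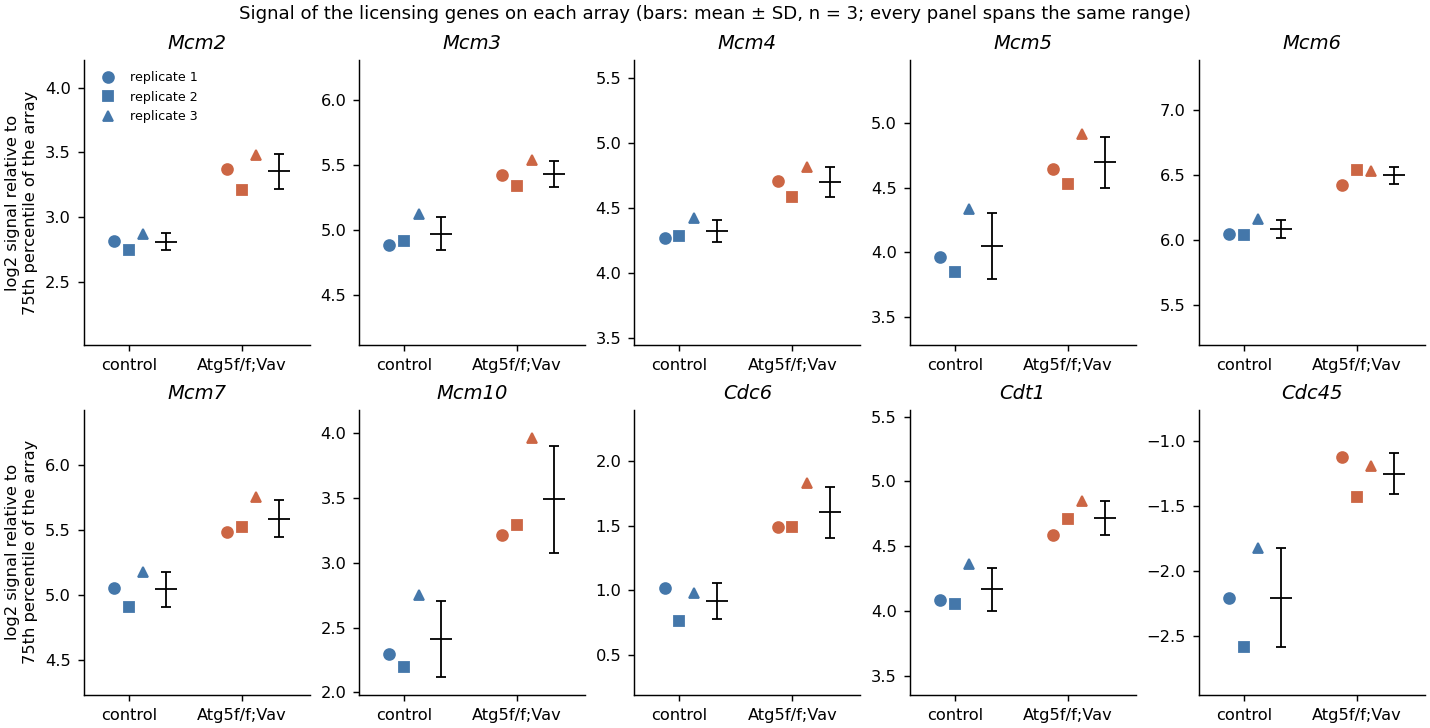
Log2 signal (vertical axes, relative to the 75th percentile of the array) of each of the 10 genes on the 3 control arrays and the 3 Atg5f/f;Vav arrays, with the mean ± SD of each group; all panels span the same range. In every panel the Atg5f/f;Vav points lie above the control points, by the widest distance between means for Mcm10 (1.07) and the narrowest for Mcm4 (0.38).

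The 6 subunits of the helicase ring differed by 0.38 to 0.64 on the log2 scale, which is 1.30-fold to 1.56-fold, with standard errors of 0.10 to 0.17. All signals here are log2 intensities minus the 75th percentile of the array, so that 0 is the level of that percentile, and levels are not compared between genes. Positions of probes are those of the mm9 build.

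Mcm2, a ring subunit whose tail binds histones, was read by 1 probe (chr6:88833619-88833678, minus strand, from base 3160 of its transcript). Its signals were 2.82, 2.74 and 2.87 in controls and 3.37, 3.21 and 3.48 in Atg5f/f;Vav cells. The groups did not overlap, and the difference was 0.54 ± 0.12 (SE, adjusted p = 0.0189). Mcm3, the subunit that contacts Cdc6 and the origin recognition complex during loading, had signals of 4.88, 4.91 and 5.12 in controls and 5.42, 5.34 and 5.54 in Atg5f/f;Vav cells (chr1:20793159-20793218). Control replicate 3 was the highest of its group and still lay 0.22 below the lowest Atg5f/f;Vav array. The difference was 0.46 ± 0.12 (adjusted p = 0.0284).

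Mcm4, which with Mcm6 and Mcm7 forms the catalytic core of the helicase, was measured at 4.27, 4.29 and 4.42 in controls and 4.71, 4.58 and 4.82 in Atg5f/f;Vav cells (chr16:15624372-15624431). This was the smallest difference of the 10 genes, at 0.38 ± 0.11, and the one closest to the threshold (adjusted p = 0.0439). Mcm6, whose promoter holds the 3 E2F words printed above, stood at 6.05, 6.03 and 6.16 in controls and at 6.42, 6.54 and 6.53 in the other group (chr1:130228178-130228237). The arrays of each group lay close together, and the difference was 0.42 ± 0.10 (adjusted p = 0.0261). Mcm7 gave 5.05, 4.91 and 5.17 in controls against 5.49, 5.53 and 5.75 (chr5:138605925-138605984). All 3 Atg5f/f;Vav arrays lay above the controls, with a difference of 0.54 ± 0.13 (adjusted p = 0.0228).

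Mcm5, which with Mcm2 forms the gate through which DNA enters the ring, varied most within the groups among the ring subunits. Its signals were 3.96, 3.85 and 4.34 in controls and 4.64, 4.53 and 4.92 in Atg5f/f;Vav cells (chr8:77651350-77651410). Replicate 3 was the highest array of each group, and the difference of 0.64 ± 0.17 (adjusted p = 0.0301) was the largest of the ring.

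Of the loading factors, Cdt1 brings the ring to the origin, and Cdc6 is an ATPase that joins the origin recognition complex before loading. Cdt1 was measured at 4.09, 4.06 and 4.36 in controls and 4.59, 4.71 and 4.85 in Atg5f/f;Vav cells (chr8:125096893-125096952). The groups did not overlap and differed by 0.55 ± 0.13 (adjusted p = 0.0245). Cdc6 had signals of 1.02, 0.76 and 0.98 in controls and 1.49, 1.49 and 1.83 in the Atg5f/f;Vav group (chr11:98782801-98782860). Its difference was 0.68 ± 0.14 (adjusted p = 0.0182), with replicate 3 the highest array of the Atg5f/f;Vav group.

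Mcm10 and Cdc45 act when the helicase is activated. Mcm10, which binds the loaded helicase when it is activated, was at 2.30, 2.20 and 2.75 in controls and at 3.22, 3.29 and 3.96 in Atg5f/f;Vav cells (chr2:4911845-4911904). Replicate 3 was highest in each group, and the difference was 1.07 ± 0.24, or 2.11-fold (adjusted p = 0.0206). Cdc45, a subunit of the active helicase that the ring lacks in G1, was at -2.21, -2.59 and -1.82 in controls and at -1.12, -1.43 and -1.19 in the other group. It was below the 75th percentile on every array, and its difference was 0.96 ± 0.21 (adjusted p = 0.0190). The probe of Cdc45 maps to chr16:18793399-18794880, a span longer than the probe itself.

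When the genes were put in order of their differences (Mcm4, Mcm6, Mcm3, Mcm2, Mcm7, Cdt1, Mcm5, Cdc6, Cdc45 and Mcm10), neighbours differed by no more than the larger standard error of the pair, except for the step of 0.28 from Cdc6 to Cdc45, where that standard error was 0.21. The order depended on the probe that represented a gene: with all probes averaged, Cdc45 differed by 0.67, Cdc6 by 0.81 and Mcm10 by 0.85. Differences were not tested between genes. For any single gene, the exact permutation test of 3 against 3 arrays gave 0.1 (2-sided), which is the smallest p that 20 arrangements allow.

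Several probes were present for 6 of the genes, and they did not always read the same difference. All 18 probes were higher on average in Atg5f/f;Vav cells, 17 without overlap of the groups, and 3 were not called. The 4 Mcm3 probes gave differences of 0.46, 0.53, 0.68 and 0.46, and each was called. The second Mcm6 probe, from base 1608, gave 0.82 ± 0.17 (adjusted p = 0.0175), against 0.42 for the brighter probe near the transcript end. Both Cdc6 probes were called, with differences of 0.68 and 0.95.

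The 3 probes that did not pass the test belonged to Mcm7, Mcm10 and Cdc45. The Mcm7 probe from base 507 had signals of 0.33, 0.54 and 0.22 in controls and 0.18, 0.56 and 0.83 in Atg5f/f;Vav cells. Here the groups overlapped, with a difference of 0.16 ± 0.19 (adjusted p = 0.532). The second Mcm10 probe gave 0.63 ± 0.25 (adjusted p = 0.0892), and the Cdc45 probe from base 663 gave 0.38 ± 0.13 (adjusted p = 0.0548). When all probes of a gene were averaged, 9 of the 10 genes were called, and Mcm7 was not (adjusted p = 0.0811).

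**Figure D2:**
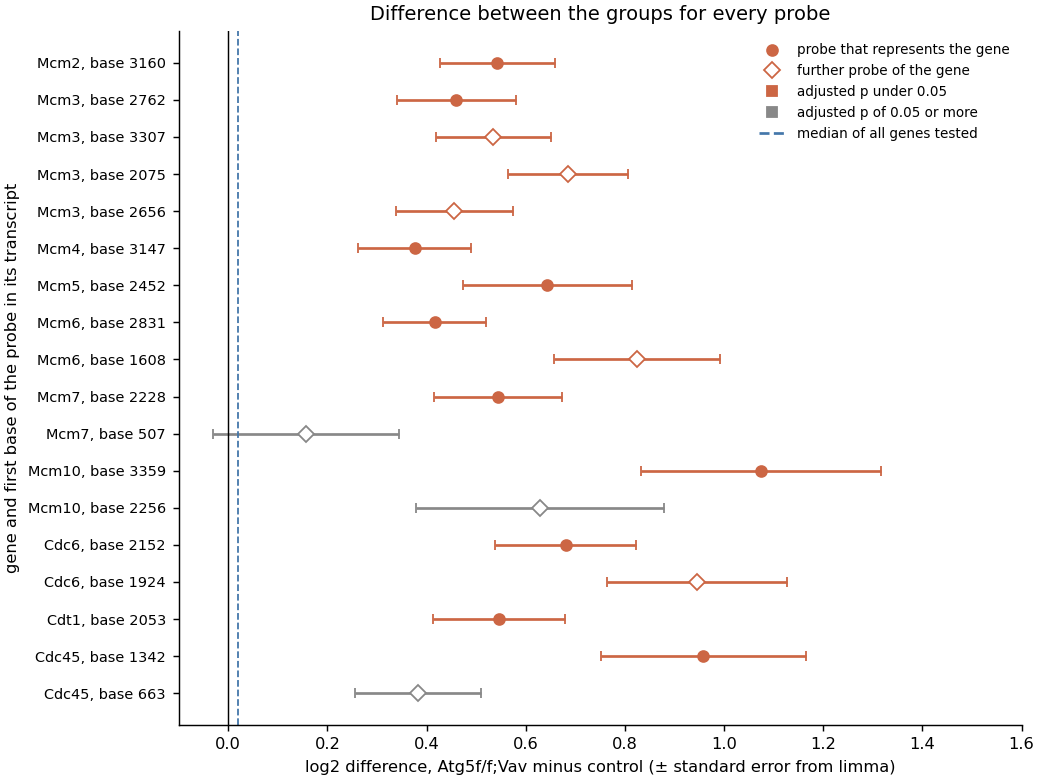
Difference in log2 signal, Atg5f/f;Vav minus control, for each of the 18 probes (horizontal axis, ± SE from limma), with filled circles for the probe that represents each gene and open diamonds for the others; grey marks an adjusted p of 0.05 or more. All points lie to the right of 0, and the Mcm7 probe from base 507 (0.16) is the one whose error bar reaches 0.

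The genes moved together from array to array. Each gene was centred on its own mean, and the centred values of the 10 genes were averaged on each array. This mean was -0.35, -0.45 and -0.13 on control replicates 1, 2 and 3, and 0.25, 0.21 and 0.48 on the Atg5f/f;Vav arrays. Within the controls, replicate 3 was the highest for 9 of the 10 genes and replicate 2 the lowest for 8. Within the Atg5f/f;Vav group, replicate 3 was the highest for 8 genes and replicate 2 the lowest for 6. Over the 6 arrays, the Pearson correlation between pairs of members had a median of 0.959 over 45 pairs, from 0.908 for Cdc45 with Mcm10 to 0.992 for Mcm3 with Mcm4. These points share the difference between the groups and the scaling of each array.

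Many genes outside the set followed the same pattern closely. The correlation of each member with the mean profile was not computed, so members and other genes are not compared here. Over the 6 arrays, 2772 of 15081 genes correlated with the members' mean profile at a Pearson r above 0.95. The 5 most alike were Ndufab1, Prmt9, Mtch2, Med28 and Ddx24, with r from 0.9997 down to 0.9995. Ddx24, a DEAD-box RNA helicase, differed by 0.90 between the groups, and Ndufab1, the mitochondrial acyl carrier protein, differed by 0.66.

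**Figure D3:**
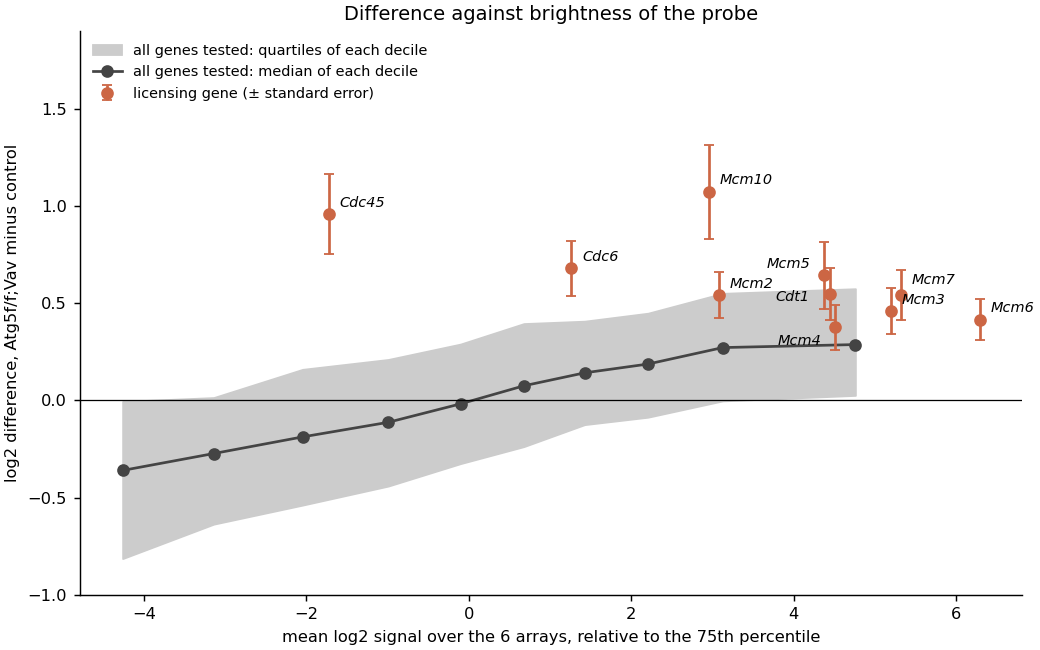
Difference in log2 signal between the groups (vertical axis) against mean log2 signal over the 6 arrays (horizontal axis). The dark line joins the medians of all genes in deciles by signal, rising from -0.36 to 0.29, the shaded band spans the quartiles, and the red points are the 10 genes with their SE; line and band end at the median signal of the brightest decile. Cdc45 (0.96), Cdc6 (0.68), Mcm10 (1.07) and Mcm5 (0.64) lie above the band, and Mcm4 (0.38) lies inside it.

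Related lists were read against the share of all genes called higher, which was 21.2% over all genes and 43.1% in the brightest decile. Among 22 genes of origin recognition and licensing control, 21 were tested, of which 11 were called higher and 1 was called lower, with a median difference of 0.43. Orc1, the largest subunit of the origin recognition complex, rose most, from -0.49, -0.72 and -0.26 in controls to 0.16, 0.35 and 0.85 in Atg5f/f;Vav cells. The arrays did not overlap, and the difference was 0.94 ± 0.21 (adjusted p = 0.0199). Orc2 rose by 0.83, whereas the differences of Orc4 (0.30, adjusted p = 0.0890) and Orc5 (0.73, adjusted p = 0.0649) did not pass the test.

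Gmnn, which encodes geminin, the inhibitor of Cdt1, was also higher. Its signals were 3.22, 3.09 and 3.46 in controls and 3.95, 3.85 and 4.23 in Atg5f/f;Vav cells. The difference was 0.76 ± 0.15 (adjusted p = 0.0177), so the loading factor and its inhibitor were both called higher. Mcm9, an MCM relative that works in DNA repair, was the gene called lower: it was at 0.45 on average in controls and at -0.09 in Atg5f/f;Vav cells, a difference of -0.55 ± 0.11 (adjusted p = 0.0180). Its partner in repair, Mcm8, was called higher (0.68, adjusted p = 0.0361).

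The kinase that activates the loaded ring showed no difference that passed the test. Cdc7, its catalytic subunit, was at 2.34, 2.19 and 2.46 in controls and 2.61, 2.29 and 2.44 in Atg5f/f;Vav cells. The groups overlapped (0.12 ± 0.13, adjusted p = 0.509). Dbf4, its activating subunit, differed by -0.10 ± 0.17 (adjusted p = 0.681). With quantile normalisation, and with the 75th percentile taken over detected probes, the difference of Cdc7 was below 0 (-0.09 in each).

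Of 39 genes of helicase activation and the replication fork, 30 were called higher and 9 were not called, and the median difference was 0.47. The largest differences were those of Recql4, a helicase needed for origin firing (1.14), Fen1, the flap nuclease that processes Okazaki fragments (0.95), and Rfc5, a subunit of the clamp loader (0.77). Gins1, a subunit of the GINS complex that joins the ring with Cdc45, rose from 1.84, 1.85 and 2.08 to 2.53, 2.48 and 2.62. That difference was 0.62 ± 0.12 (adjusted p = 0.0166). Pcna, the sliding clamp, rose by 0.60 ± 0.13 (adjusted p = 0.0192).

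Regulators of entry into S phase, both those that promote it and those that restrain it, formed a further list. Of 23 E2F factors, pocket proteins, cyclins and kinases of G1 and S phase, 10 were called higher and 2 lower. Over all genes tested, 21.2% were called higher and 13.5% lower. The median difference of the list was 0.30. Ccne1, which encodes cyclin E1, rose most (1.32 ± 0.32, adjusted p = 0.0239), followed by Cdk6 (0.96) and E2f4 (0.87). E2f1, an activating E2F, was at 1.58, 1.62 and 1.78 in controls and 2.08, 2.12 and 2.16 in Atg5f/f;Vav cells, a difference of 0.46 ± 0.11 (adjusted p = 0.0221). The genes called lower were Rbl2, the pocket protein p130 of quiescent cells (-0.49), and Tfdp2, a dimerisation partner of E2F (-0.48). Genes of G2 and M phase had the largest median of these lists, 0.82, with 14 of 16 called higher and 2 not called. Plk1 (1.17), Aurkb (1.09) and Cdk1 (0.94), which encode kinases of mitosis, had the largest differences among them. Without control replicate 1, 0 genes of the 4 lists were called higher by limma, and 0 without control replicate 2, although 26 or 27 fork genes, 11 licensing partners, 10 E2F and G1 to S genes and 14 or 15 G2 and M phase genes had an unadjusted p under 0.05. Without Atg5f/f;Vav replicate 2, 17 fork genes and 6 licensing partners were called higher, and without Atg5f/f;Vav replicate 3, 7 licensing partners. With quantile normalisation, 9 fork genes, 6 licensing partners, 6 E2F and G1 to S genes and 10 G2 and M phase genes were called higher. In that setting 14.9% of all genes tested were called higher.

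**Figure D4:**
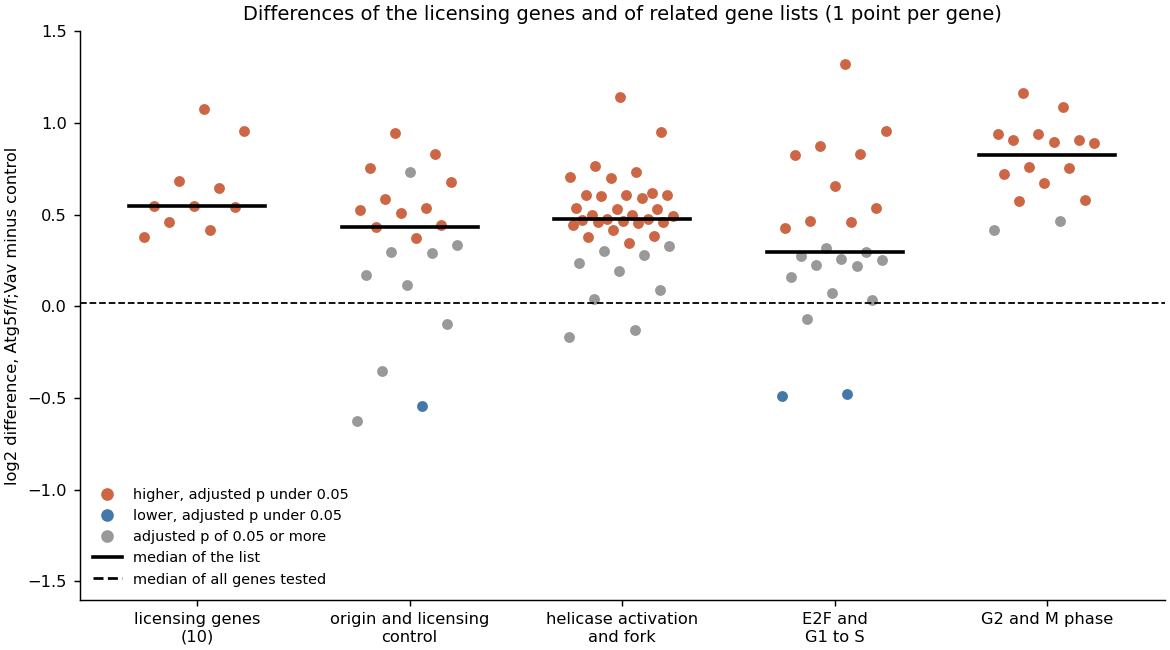
Difference in log2 signal between the groups (vertical axis), with 1 point for each tested gene of the 10 licensing genes and of 4 related lists; red points were called higher, blue lower and grey not called, and bars mark medians. Medians run from 0.30 for the E2F and G1 to S genes to 0.82 for the G2 and M phase genes, and the dashed line marks that of all genes (0.02).

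The choice of scaling moved the number of genes called and their median difference more than that of background correction. For Cdc45 this did not hold. Its difference (0.96) was 0.69 with normexp background correction, 0.75 with the 75th percentile over detected probes and 1.12 with quantile normalisation. With quantile normalisation between arrays, the differences of all 10 genes were still above 0, but those of the bright ring subunits shrank, to 0.07 for Mcm3, 0.02 for Mcm4, 0.14 for Mcm6 and 0.18 for Mcm7. Cdc6 (0.57), Mcm10 (0.82) and Cdc45 (1.12) were then the 3 genes called, while 14.9% of all genes tested were called higher. Taking the 75th percentile over detected probes lowered the median of all genes to -0.19 and left 6 of the 10 genes called. Of all genes tested, 12.7% were then called higher, compared with 21.2% as reported here. The share of higher among all probes called was 25.05%, compared with 50.3% as reported.

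**Figure D5:**
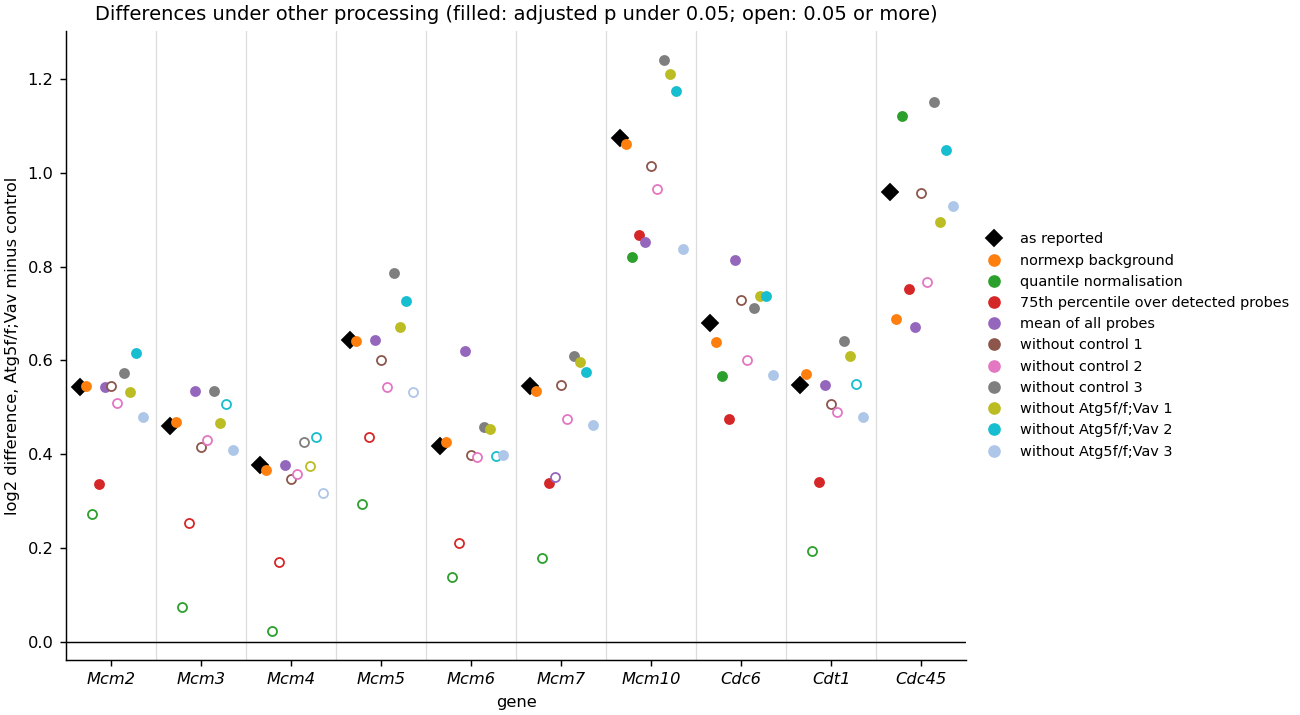
Difference in log2 signal between the groups (vertical axis) for each of the 10 genes under 10 other ways of processing, with the reported value as a black diamond; filled symbols have an adjusted p under 0.05 and open symbols 0.05 or more. All symbols lie above 0, from 0.02 for Mcm4 with quantile normalisation to 1.24 for Mcm10 without control replicate 3, and no symbol is filled without control replicate 1 or 2.

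The labels and the makeup of the sorted cells bear on every comparison above. It was not worked out whether the Atg5 probe falls within the floxed stretch. That probe (chr10:44083997-44084056, from base 2251 of its transcript) read 1.10, 0.93 and 1.06 in controls and 1.46, 1.51 and 1.74 on the arrays labelled Atg5f/f;Vav (a difference of 0.54, adjusted p = 0.0209). The directions given here therefore rest on the labels. Kit was well above background on all arrays (control mean 4.02, Atg5f/f;Vav mean 3.64, adjusted p = 0.0563), and Ly6a, which encodes Sca-1, was higher in Atg5f/f;Vav cells by 1.57 ± 0.15 (adjusted p = 0.00623). Among the 10 LSK and stem cell markers, 4 were called lower and Ly6a alone was called higher. With normexp background correction 7 were called lower, and with quantile normalisation or the 75th percentile over detected probes 6 were. Kit was among them in each of these settings (adjusted p = 0.0475, 0.0272 and 0.0232). With the normalised signals that the authors deposited, 3 markers were called lower, without Kit (adjusted p = 0.0686). Over all probes, 5484 were called lower as reported and 5031 with the deposited signals. The number was 5449 with normexp, 3705 with quantile normalisation and 10088 with the 75th percentile over detected probes. The summed linear signal of the LSK list was 162 to 170 in controls and 91.6 to 159 in the other group. Cd34 had the highest signal of the list on every array and so weighed most in this sum. Its difference was -0.27 (adjusted p = 0.360 from limma). Mecom (-1.75 ± 0.34) and Hlf (-1.65 ± 0.33), both stem cell transcription factors, had the largest falls that passed the test. In bulk samples, fewer cells of a type and less RNA per cell cannot be told apart.

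Markers of other cell types also differed. Of 11 erythroid markers, 5 were called higher, led by Car1 (a difference of 3.80) and Gata1 (means of 0.73 in controls and 3.73 in Atg5f/f;Vav cells). The 3 called lower were Hba-a1 (-2.26), Alas2 (-2.07) and Hbb-b1 (-1.92). The summed signal of the 11 markers was 254 to 530 in controls and 117 to 184 in Atg5f/f;Vav cells. Of this, the Hba-a1 probe, for alpha-globin, gave 82.8% to 90.3% and 42.2% to 56.4%. Without Hba-a1 the sums were 43.7 to 51.5 and 53.4 to 106.3. Of 12 myeloid markers, 3 were called higher and 5 lower (sums of 186 to 305 and 250 to 309), with Ctsg at 1.91 and S100a8 at -1.38. The 7 B cell markers had 1 called higher (sums of 9.19 to 12.3 and 10.7 to 17.9), and the lowest adjusted p among 5 tested T and NK cell markers was 0.0712 (Cd3g and Cd8a were not tested; sums of 7.21 to 10.8 and 10.2 to 11.4). Of 6 megakaryocyte markers, 1 was called higher and 3 lower (sums of 7.56 to 9.07 and 6.40 to 6.79), and of 5 mast cell and basophil markers 1 each way (sums of 2.14 to 6.16 and 4.02 to 4.66). Of 7 tested stromal and endothelial markers, 4 were called lower (sums of 10.04 to 39.96 and 5.67 to 8.78), and Col1a1 was not well above background on any Atg5f/f;Vav array. The controls were not alike here. On control replicates 1, 2 and 3, Col1a1 read -4.14, 3.23 and 2.95, and Col1a2 read -0.90, 3.47 and 2.90. The part of these markers in the differences of the licensing genes was not tested. All arrays shared 1 slide and 1 scan, with controls in slide row 1 and Atg5f/f;Vav arrays in row 2, so row and genotype cannot be told apart.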

How the data were processed

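LSK cells were sorted into TRIzol by the authors, and RNA was amplified, labelled with Cy3 and hybridised to 6 arrays. The scanner files deposited by the authors hold 1 intensity for each spot, from which Agilent Feature Extraction (version 12.0.3.1) had subtracted background and spatial trend, with arrays left on their own scales. A further deposited table gives a normalised signal, which the files show to be the intensity divided by the 75th percentile of the array.

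Log2 intensity was taken minus the 75th percentile of each array over spots that are not controls. From 64 to 81 outlier spots were dropped on each array, and 0 spots were saturated. The 75th percentile of intensity was 620.3 to 881.4. Controls had 57.6% to 58.2% of probes well above background, and Atg5f/f;Vav arrays had 51.6% to 54.8%. The groups did not overlap in this. How far this gap bears on the differences reported was not tested. The number of arrays limits the precision. A probe entered the test when 3 or more of the 6 arrays read it well above background, which left 32074 probes. The groups were compared by the 2-sided moderated test of limma (version 3.58.1, R 4.3.3), and p-values were adjusted by the Benjamini-Hochberg method over these probes, with a threshold of 0.05. Each gene was represented by its brightest probe, and 686 of 15094 genes were matched to RefSeq through an older name. The steps were tested on simulated data.

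The members, the lists and the alternatives were chosen with earlier results of these data known. The lists were origin recognition and licensing control, helicase activation and fork, E2F and G1 to S, G2 and M phase, and markers of LSK, erythroid, myeloid, B, T and NK, megakaryocyte, mast cell and basophil, and stromal and endothelial cells. Named are all members and their probes, up to 3 genes each way with the largest change in each list and up to 2 in a marker list, with Orc1, Gmnn, Cdc7, Dbf4, Pcna, Gins1, E2f1, Kit and Ly6a. Genes named outside this rule (Orc4, Orc5, Mcm8, Cd34, Mpo, S100a9, Hba-a1, Hbb-b1, Alas2, Ufd1, Ap4m1) were chosen after their values were seen.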

Additional observations from a re-analysis of the deposited data

How the results depend on the processing

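Over 17 alternatives the 10 genes gave 170 differences, 1 per gene and alternative, and all 170 were above 0, with values of 0.02 to 1.24. These are not independent. Alternatives that changed only the filter on probes, the outlier spots kept, the test or the block left the range as reported (0.38 to 1.07). Those could not have changed the direction. The number of genes called higher was 10 as reported and again 10 with normexp background correction, the deposited table, a filter on all 6 arrays, outlier spots kept, an intensity trend or the replicate number as a block. It was 3 with quantile normalisation, 6 with the 75th percentile over detected probes, 2 without a filter on dim probes, 0 with the methods' t-test (10 with an unadjusted p under 0.05), and 0 to 9 when 1 array was left out. In that order, the licensing partners called higher (11 as reported) were 6, 3, 1, 0 and 0 to 10, and the fork genes (30) were 9, 12, 6, 0 and 0 to 26. The E2F and G1 to S genes (10) were 6, 6, 3, 0 and 0 to 9. The G2 and M phase genes (14) were 10, 11, 7, 0 and 0 to 14. For each list, 0 stands for the fits without control replicate 1 or 2. Of all genes tested, 21.2% were called higher as reported. The share was 14.9% with quantile normalisation and 12.7% with the 75th percentile over detected probes. All probes called (11024) were 4538 without the filter, 0 with the methods' t-test (13541 with an unadjusted p under 0.05) and 157 to 10426 with 1 array left out.

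The members' median difference (0.55) was 0.23 with quantile normalisation, 0.34 with the 75th percentile over detected probes and 0.48 to 0.63 with 1 array left out. Less the median of all genes (0.53), it was 0.23 with quantile normalisation and 0.46 to 0.58 with 1 array left out. It stayed at 0.53 with the 75th percentile over detected probes, a scaling that moves all genes of an array alike. The cause of the changes with quantile normalisation or with 1 array left out was not tested. Over all probes tested, the deviations of same-numbered arrays from their group means correlated at r of -0.07, 0.19 and 0.11, not above 0.1 in every pair, so the numbers were not taken to pair the samples, although for the mean of the 10 genes replicate 3 was highest and replicate 2 lowest in both groups; with replicate number as a block, 10173 probes and all 10 genes were called. With 1 slide and 1 scan, no fit with either as a block could be made. Dim probes limit what can be read for Cdc45, which lay in the third decile by signal.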

Other observations

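Some of the genes share a start region with a neighbour on the opposite strand, and these pairs were chosen after their values were seen. Cdc45 and Ufd1, a cofactor of the p97 ATPase, start 320 bases apart, and both were higher in Atg5f/f;Vav cells; Ufd1 differed by 0.71 ± 0.12 (adjusted p = 0.0155 from limma) and Cdc45 by 0.96. Mcm7 and Ap4m1, a subunit of an adaptor complex, start 136 or 753 bases apart, depending on the Mcm7 start. Ap4m1 differed by -0.19 ± 0.10 (adjusted p = 0.189), while Mcm7 was higher by 0.54.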
